A study of Mus musculus with 12 samples.

Results

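The dystrophin-glycoprotein complex was followed here through 8 of its genes, Dmd, Utrn, Dag1, Sgca, Sgcb, Sgcd, Sntb1 and Dtna, chosen by symbol from the 56941 genes of the deposited tables. Each symbol matched 1 row, and all 8 genes passed the filter on low counts. The deposited identifiers are ENSMUSG00000045103 for Dmd, ENSMUSG00000019820 for Utrn, ENSMUSG00000039952 for Dag1, ENSMUSG00000001508 for Sgca, ENSMUSG00000029156 for Sgcb, ENSMUSG00000020354 for Sgcd, ENSMUSG00000060429 for Sntb1 and ENSMUSG00000024302 for Dtna. GENCODE M21 places Dmd on the X chromosome, Sgca and Sgcd both on chromosome 11, and Utrn, Dag1, Sgcb, Sntb1 and Dtna on chromosomes 10, 9, 5, 15 and 18. C2C12, an established line of mouse muscle precursors that join into myotubes on differentiation, was grown in 6 wells of a ChR2::tdTomato line (ChR2 wells) and 6 wells of the Wild-Type line (wild-type wells). ChR2 is channelrhodopsin-2, a cation channel opened by blue light, and tdTomato is a red fluorescent protein. Both lines sat on a fibrin gel 1 mm thick, and were lysed after 2 days of growth and 6 days of differentiation, with aminocaproic acid in both media and IGF-1 in the second. The labels name no light exposure of the wells, no promoter for the transgene, and not whether the ChR2 line is 1 clone. The wells are repeats of 1 line each, so every p below measures the spread between wells and cannot separate the transgene from other differences between the lines.

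Dystrophin (Dmd) ties cortical actin to the membrane of the muscle fibre, and utrophin (Utrn) is its autosomal homologue, which in adult muscle gathers at the neuromuscular junction. Dystroglycan (Dag1) is cut into an outer subunit that binds laminin through its sugar chains and a membrane-spanning subunit that binds dystrophin or utrophin. The sarcoglycans (here Sgca, Sgcb and Sgcd) form a membrane subcomplex beside it, and syntrophins (Sntb1) and dystrobrevins (Dtna) attach signalling proteins on the inner side. In people, loss of dystrophin or of the sarcoglycan from Sgca, Sgcb or Sgcd causes muscular dystrophy.

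Wild-type wells 2 and 5 stood apart, so the tests were run both with and without them. Several values below are given with all 12 libraries only. Wells 2 and 5 held 1061100 and 2809700 estimated counts, against 7388800 to 13629000 in the other 10 wells. The 7SL RNAs, which carry no poly(A) tail, took 24.8% and 8.37% of their counts and at most 0.0341% elsewhere, and mitochondrial genes took 0.139% and 0.291% against at least 0.746% elsewhere. The protocol says that low-input samples were depleted of ribosomal RNA instead of selected for poly(A), without naming them. Summed markers of late muscle differentiation ran from 12752 to 16498 CPM (counts scaled by TMM to library size) in ChR2 wells. In wild-type wells they ran from 6768 to 18869, or from 11918 to 18869 without wells 2 and 5. None of 5 endothelial markers was abundant enough to test. In these bulk lysates, fewer cells of a type and less RNA per cell cannot be told apart.

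The promoters of Dmd and Dag1 are shown because Dmd is read from a long and from short transcripts, which bears on its values below, and because Dag1 is 1 of the members that differed between the lines. They are the 250 bases before the RefSeq start on build GRCm38.p6, written 5′ to 3′. Of the 8 members, 6 have a promoter in that table, Sntb1 has no entry, and Dtna was not used. The first Dmd promoter, on the plus strand of the X chromosome, lies 33 bases before the start of the 14910-base coding transcript, with capitals on 2 E-boxes (CANNTG) and 1 CArG box. The second lies 118 bases before the start of a 1858-base coding transcript, with capitals on GC boxes (GGGCGG on either strand, the last 2 of 3 overlapping). Dag1 has a pair of overlapping promoters in the table, of which the one farther upstream is shown; on the minus strand of chromosome 9, it has 3 GC boxes in capitals and 1 E-box left in lower case. The build behind the deposited counts is not settled, so these places serve only to show the sequences.
Dmd long, chrX:82948620-82948869: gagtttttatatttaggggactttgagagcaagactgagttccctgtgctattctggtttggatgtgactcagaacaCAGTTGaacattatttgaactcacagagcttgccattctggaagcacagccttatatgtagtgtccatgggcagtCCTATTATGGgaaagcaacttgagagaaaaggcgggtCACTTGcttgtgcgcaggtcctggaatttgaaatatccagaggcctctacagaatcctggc
Dmd short, chrX:85048045-85048294: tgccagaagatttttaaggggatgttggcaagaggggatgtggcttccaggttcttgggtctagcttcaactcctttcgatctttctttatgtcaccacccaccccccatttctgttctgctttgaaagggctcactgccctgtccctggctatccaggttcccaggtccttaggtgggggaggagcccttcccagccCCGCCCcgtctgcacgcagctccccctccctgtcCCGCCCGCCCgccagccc
Dag1, chr9:108263959-108264208: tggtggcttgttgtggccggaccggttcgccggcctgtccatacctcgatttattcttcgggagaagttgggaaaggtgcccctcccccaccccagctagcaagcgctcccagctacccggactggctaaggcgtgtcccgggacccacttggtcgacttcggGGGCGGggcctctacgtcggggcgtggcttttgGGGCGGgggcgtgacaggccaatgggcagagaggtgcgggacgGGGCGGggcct
Among 32851 RefSeq promoters of the same length, 66.2% held an E-box, 32.7% a GC box and 1.47% a CArG box. The E-box is the motif bound by the MyoD family, the CArG box by serum response factor and the GC box by Sp1-type factors. The N-box (TTCCGG on either strand), which ETS-type factors bind, was found in 12% of all these promoters and in none of the 8 promoters of members in the table. A match of letters is a description of the sequence only.

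The members spanned almost the whole range of measured abundance. TPM divides by transcript length before scaling to the library, so it is the scale on which genes can be ranked. Dag1 had rank 1 or 2 among the 8 in every ChR2 well, with 85.8 to 137 TPM and a median of 116, and rank 1 in all 6 wild-type wells. Sgcb stood beside it in ChR2 wells, at 90.7 to 111 TPM, and the ranges of these neighbours overlapped. Sgca followed at rank 3, with 69.4 to 98.6 TPM, reaching into the range of Sgcb, and Dtna at rank 4, with 47.8 to 62.2 TPM, clear of its neighbours. Sntb1 lay at 23.0 to 36.1 TPM and Sgcd at 24.4 to 29.2 TPM, overlapping. Utrn, at 16.1 to 24.6 TPM, had rank 7 in every ChR2 well and reached into the ranges of both. Dmd was last in all 12 wells, at 0.122 to 0.365 TPM in ChR2 wells and 0.0835 to 0.394 TPM in wild-type wells. By mean CPM, which does not correct for length, only 5.31% of the 13168 tested genes were lower than Dmd, while 98.1% were lower than Dag1 and 95.6% lower than Sgcb.

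In wild-type wells 1, 3, 4 and 6 the order by TPM was the same in each, namely Dag1, Sgcb, Sgca, Dtna, Sntb1, Sgcd, Utrn and Dmd. Well 2 broke this order, with Sntb1 at rank 2 (28.4 TPM), Sgcb at rank 4 (9.25 TPM) and Dtna at rank 7 (3.70 TPM). Well 5 did so too, with Sntb1 at rank 2 (42.6 TPM), Sgcb at rank 4 (30.2 TPM) and Dtna at rank 6 (19.0 TPM). A 7SL share scales all TPM of a well alike, so it bears on their level and not on their order. TPM also divides by the length of the transcripts that reads were assigned to. An index of that length, explained below, was for Sntb1 0.404 and 0.560 times that of Sgcb in wells 2 and 5. Elsewhere it was 1.32 to 1.35 times. The part of this in the rank of Sntb1 was not tested.

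**Figure D1:**
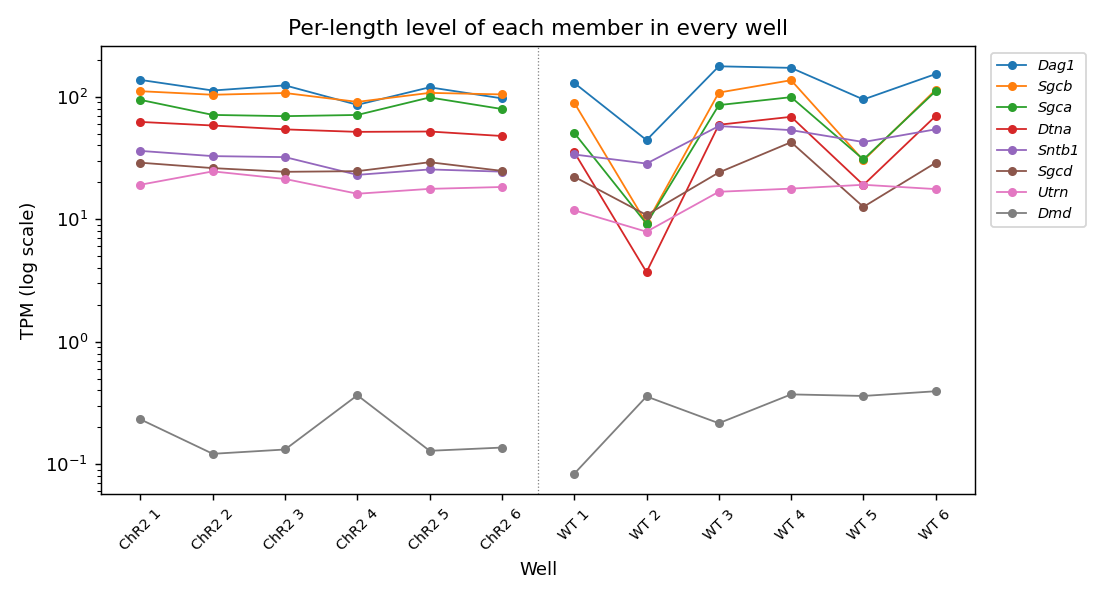
TPM of each member (log axis) in each of the 12 wells, with ChR2 wells left of the dotted line and wild-type wells right of it; lines join the values of 1 gene and carry no order of wells. Dmd lies lowest in every well. The sarcoglycans, Dtna and Dag1 lie lower in wild-type wells 2 and 5 than in the other wild-type wells, and Utrn and Sntb1 do so in well 2 only.

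Between the lines, 2 of the 8 members passed the test, both lower in ChR2 wells. Dag1 and Sntb1 fell, and no member rose. Dmd, Utrn, Sgca, Sgcb, Sgcd and Dtna did not pass. Genes were tested with edgeR (quasi-likelihood, Benjamini-Hochberg adjustment over all genes, threshold 0.05), which called the same 2 members with all 12 libraries and with the 10 that leave out wild-type wells 2 and 5. Of all genes tested, 28.1% were called with 12 libraries, made up of 14.1% lower and 14% higher. With 10 libraries 35.2% were called, made up of 16.3% lower and 18.9% higher. A count of 2 called among 8 is a share near that background. The median log2 fold change of the 8 members was -0.10 with 12 libraries and -0.05 with 10, beside -0.02 and -0.00 over all genes tested.

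Values of the wells overlapped between the lines for all 8 members, in both sets of libraries, while 15.1% of all tested genes did not overlap with 12 libraries and 25% did not with 10. ChR2 wells were close to each other and wild-type wells were spread. Among wild-type wells 1, 3, 4 and 6, well 1 was the lowest in CPM for 8 of 8 members, against 30.5% of all 13484 genes tested in those libraries. That count was taken after the values were seen.

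**Figure D2:**
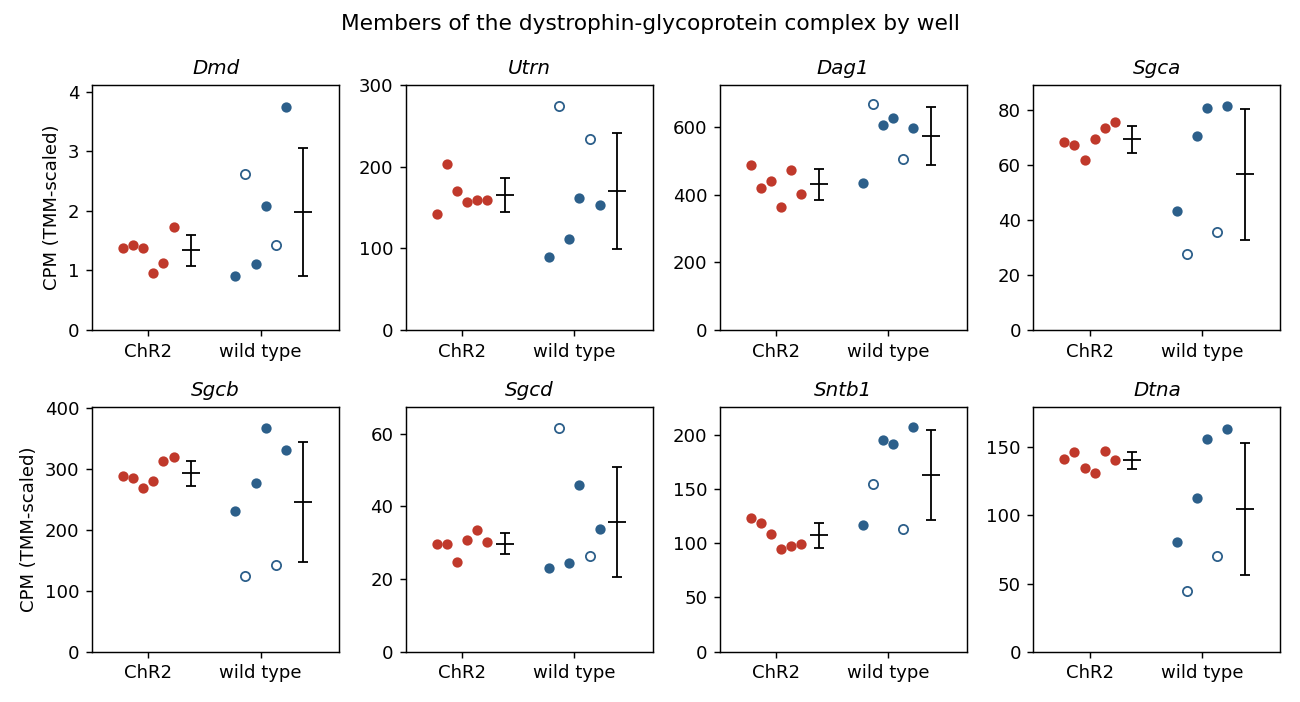
CPM on TMM-scaled library sizes for each member, 1 point per well, with the mean and SD over 6 wells of each line as bars and wild-type wells 2 and 5 as open circles. The 6 ChR2 wells of Dag1 lie between 365 and 488, and wild-type well 1, at 434, is the wild-type value among them.

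Of the members that bind actin, Dmd was near the floor of detection. Its estimated counts were 7 at the lowest, 13.5 at the median and 17 at the highest in ChR2 wells, and 2, 11 and 51 in wild-type wells. The 2 counts were those of wild-type well 2, under the floor of 3 counts used here, and the 51 those of well 6. In CPM, ChR2 wells had 0.962, 1.38 and 1.73 and wild-type wells 0.900, 1.75 and 3.74, so the ChR2 range lay inside the wild-type one. The log2 fold change was -0.54 ± 0.35 (SE, n = 6 and 6; edgeR adjusted p = 0.263) and -0.55 ± 0.37 without wells 2 and 5 (adjusted p = 0.264). Without wild-type well 6 it was -0.10 with 12 libraries and -0.01 with 10.

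Deposited counts and TPM of 1 gene differ by the mean length of the transcripts its reads were assigned to, so their ratio, divided here by the median ratio of the library, is an index of that length. For Dmd it was read as a multiple of the index of Sgcb, whose single coding transcript has 3786 bases. It was 4.15 to 4.28 times that of Sgcb in ChR2 wells 2, 3 and 6 and 4.17 times in wild-type well 1. In ChR2 well 4 it was 0.853, in wild-type well 2 it was 0.545 and in well 5 it was 0.839, with 7, 2 and 4 counts in these 3 wells. The remaining 5 wells lay between 2.00 and 3.26. Reads of Dmd were thus assigned to transcripts of very unequal mean length in wells of the same line, and with so few counts Dmd was not tested for this.

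Utrn was far more abundant than Dmd in every well. It had 142 CPM at the lowest, 159 at the median and 203 at the highest in ChR2 wells, and 89.2, 158 and 274 in wild-type wells. The highest wild-type values, 274 and 234, were those of wells 2 and 5, and the other 4 wild-type wells ran from 89.2 to 162. Its log2 fold change was -0.02 ± 0.22 with 12 libraries (edgeR adjusted p = 0.954), a sign that turned under several settings, and 0.37 ± 0.16 with 10 (adjusted p = 0.0803). It passed with 10 libraries when wild-type well 4 was also left out (0.50, adjusted p = 0.0260) or well 6 (0.47, adjusted p = 0.0393). The TPM of Utrn divided by that of Dmd within a well was 44.2, 136 and 202 (lowest, median, highest) in ChR2 wells and 22.1, 50.4 and 142 in wild-type wells, and the lines overlapped. This ratio carries the counting error of Dmd and was not tested.

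Dag1, the membrane link of the complex, was lower in ChR2 wells. It had 365 CPM at the lowest, 431 at the median and 488 at the highest, against 434, 604 and 670 in wild-type wells. Wild-type wells 2, 3, 4, 5 and 6, at 507 to 670, were above every ChR2 well, and wild-type well 1, at 434, was not. The means were 432 ± 45.9 (SD, n = 6) and 575 ± 87.2 (SD, n = 6). Its log2 fold change was -0.41 ± 0.13 (edgeR adjusted p = 0.0320), and -0.38 ± 0.12 with 10 libraries (adjusted p = 0.0239). This call lay near the threshold. With 12 libraries it was lost with upper-quartile scaling (-0.35, adjusted p = 0.0706), with no filter (-0.39, adjusted p = 0.105) and on log2 TPM (-0.07, limma adjusted p = 0.924 to 0.930). The filtered TPM fits moved the median of all genes by 0.37 and 0.45, and relative to that median Dag1 was at -0.419 and -0.505, as low as on counts. It was also lost there without any 1 of ChR2 wells 2, 3, 4, 5 or 6 or wild-type wells 3 or 4, at log2 fold changes of -0.42 to -0.37 and adjusted p up to 0.0755. With 10 libraries it was lost without ChR2 well 6 or wild-type well 3, 4 or 6, at -0.37 to -0.33 and adjusted p up to 0.0640.

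Genes for enzymes that build the laminin-binding sugar chain of dystroglycan were called at a share near that of all genes, in both directions. Of 18 such genes 17 were tested. With 12 libraries 1 rose and 4 fell, and with 10 libraries 2 rose and 3 fell. The share called over all genes tested was 28.1% with 12 libraries and 35.2% with 10. Pomt1, part of the O-mannosyltransferase that starts the chain, rose by 0.58 ± 0.12 on the log2 scale (edgeR adjusted p = 0.00317), from 14.0 ± 1.69 CPM in wild-type wells to 21.2 ± 2.29 in ChR2 wells (SD, n = 6 each), with no overlap. Pomk, which phosphorylates the core mannose, fell by 0.58 ± 0.20 with 12 libraries (adjusted p = 0.0386) and was at -0.30 ± 0.11 with 10 (adjusted p = 0.0534). B4gat1, which adds the glucuronic acid that primes the repeat, fell by 0.48 ± 0.16 (adjusted p = 0.0374) and was at -0.23 ± 0.09 with 10 (adjusted p = 0.0653). Wild-type wells 2 and 5 thus bear on both of these falls. The other falls called with 12 libraries held in both sets. Dolk was at -0.48 (edgeR adjusted p = 0.0152) and at -0.45 with 10 (adjusted p = 0.0111). B3galnt2 was at -0.42 (adjusted p = 0.0444) and at -0.46 with 10 (adjusted p = 0.0225).

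Among the matrix proteins that bind dystroglycan or the sarcoglycans, 6 of 10 were tested. Over all genes tested, 14% rose with 12 libraries and 18.9% with 10. Of the 6 matrix proteins, 1 rose with 12 libraries and 2 with 10, and none fell. Bgn, a small proteoglycan reported to bind dystroglycan and sarcoglycans, was the first. It rose by 1.66 ± 0.22 on the log2 scale (edgeR adjusted p = 0.000183), from 301 ± 111 CPM in wild-type wells to 954 ± 166 in ChR2 wells (SD, n = 6 each), and no well overlapped. Agrn, the heparan sulphate proteoglycan that clusters acetylcholine receptors, passed with 10 libraries (0.59, adjusted p = 0.00245) and was at 0.40 with 12 (adjusted p = 0.0821). Lama2, the laminin chain of the muscle basement membrane, was at 0.12 (adjusted p = 0.721).

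Sgca, Sgcb and Sgcd, the single-pass sarcoglycans measured here, did not pass in either set. Sgca had 61.7, 68.9 and 75.7 CPM (lowest, median, highest) in ChR2 wells and 27.5, 57.0 and 81.3 in wild-type wells. Sgcb had 268, 287 and 319 CPM in ChR2 wells and 125, 254 and 367 in wild-type wells. For both genes the lowest wild-type wells were 2 and 5, and the ChR2 range lay inside the wild-type one. The log2 fold changes were 0.24 ± 0.215 for Sgca (edgeR adjusted p = 0.425) and 0.24 ± 0.22 for Sgcb (adjusted p = 0.447) with 12 libraries. With 10 they were 0.02 ± 0.15 and -0.03 ± 0.12 (adjusted p = 0.924 and 0.874), values whose sign turned under other settings. Sgcd had 24.6, 29.999 and 33.6 CPM in ChR2 wells and 23.0, 30.03 and 61.6 in wild-type wells, where the highest was well 2. Its log2 fold change was -0.19 ± 0.20 (adjusted p = 0.529) with 12 libraries, turning in sign under voom (0.05), and -0.08 ± 0.17 with 10 (adjusted p = 0.765).

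Sgce, a sarcoglycan outside the 8 that takes the place of Sgca in many tissues other than striated muscle, rose by 0.63 ± 0.15 on the log2 scale (edgeR adjusted p = 0.00559). It had 22.8 to 30.4 CPM in ChR2 wells and 10.5 to 21.0 in wild-type wells, with no overlap. Sspn, or sarcospan, which associates with the sarcoglycans, was at -0.05 (adjusted p = 0.831).

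Ratios of TPM within a well put the subunits on 1 per-length scale. Sgca over Sgcb was 0.647, 0.771 and 0.917 (lowest, median, highest) in ChR2 wells and 0.567, 0.883 and 1.02 in wild-type wells, and the lines overlapped. Sgcd over Sgcb was 0.227, 0.256 and 0.272 in ChR2 wells and 0.223, 0.283 and 1.17 in wild-type wells. Its highest value was that of wild-type well 2, and without wells 2 and 5 the wild-type ratios ran from 0.223 to 0.312, around the ChR2 ones. These ratios were picked after the values were seen and carry no test.

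**Figure D3:**
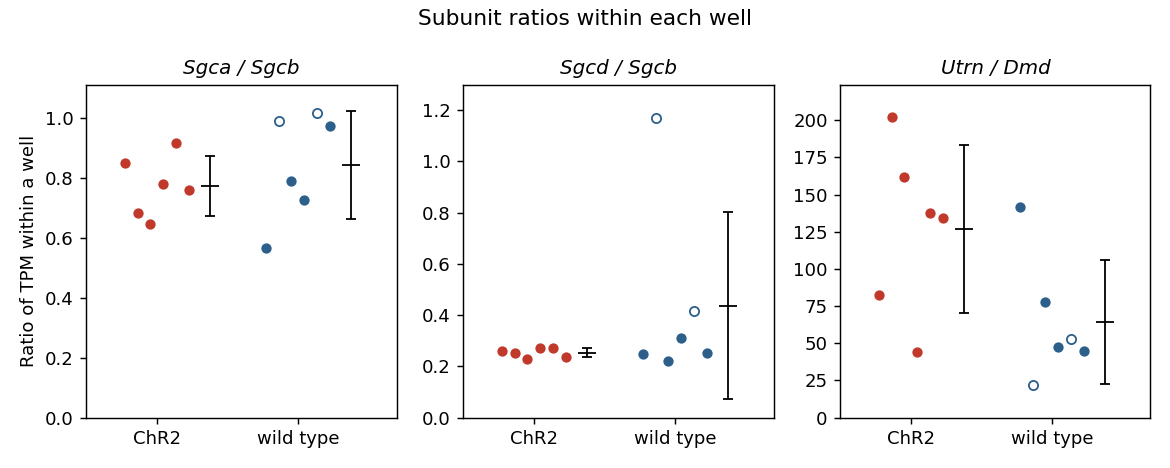
Ratio of TPM within each well for 3 pairs of members, 1 point per well, with the mean and SD over 6 wells of each line as bars and wild-type wells 2 and 5 as open circles. The lines overlap in every ratio, and Sgcd over Sgcb stands highest in wild-type well 2, at 1.17.

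Of the inner adaptors, Sntb1, or beta-1-syntrophin, fell. It had 94.9 CPM at the lowest, 104 at the median and 124 at the highest in ChR2 wells, against 113, 173 and 207 in wild-type wells. Wild-type wells 1 and 5, at 116 and 113, lay within the ChR2 range, and the other 4, at 155 to 207, lay above it. The means were 107 ± 11.9 and 163 ± 41.4 CPM (SD, n = 6 each). The log2 fold change was -0.61 ± 0.16 (edgeR adjusted p = 0.0116), and -0.71 ± 0.14 with 10 libraries (adjusted p = 0.00190). It held without each well in turn, with adjusted p up to 0.0367 with 12 libraries and up to 0.00738 with 10. It was lost on log2 TPM with all 12 libraries, at nearly the same size (-0.61 to -0.59, limma adjusted p = 0.268 to 0.333). Relative to the median of all genes this was -0.94 and -1.04 in the filtered fits and -0.667 in the unfiltered one. TPM divides by the assigned transcript length, which for Sntb1 was shorter in wild-type wells 2 and 5, as given below. Without these wells the filtered TPM fits put Sntb1 at -0.665 and -0.674 relative to that median, beside -0.713 on counts.

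The length index of Sntb1 was 2.02 to 2.11 times the library median in ChR2 wells and 2.08 to 2.12 times in wild-type wells 1, 3, 4 and 6, a spread of a few percent. In wild-type well 2 it was 0.693 and in well 5 it was 0.905. Against the index of Sgcb in the same well it was 0.404 and 0.560 there, and 1.32 to 1.35 in the other 10 wells. Sntb1 has coding transcripts of 4919 and 1225 bases in GENCODE M21, so reads in these wells were assigned to shorter transcripts on average. Neither set of libraries called any of the 7 members tested on this index by limma, with adjusted p of at least 0.456 with 12 libraries and 0.706 with 10. Over all genes 0 of 8555 were called with 12 libraries, with 526 at an unadjusted p under 0.05, and 4 of 11998 with 10 libraries (0.0333%; 830 unadjusted).

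Sntb2, or beta-2-syntrophin, was at -0.05 ± 0.22 on the log2 scale (edgeR adjusted p = 0.899) and at 0.25 ± 0.13 with 10 libraries (adjusted p = 0.141). Whether its change differs from that of Sntb1 was not tested.

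Dtna, or alpha-dystrobrevin, had 131, 141 and 148 CPM (lowest, median, highest) in ChR2 wells and 44.6, 96.7 and 164 in wild-type wells. Wild-type wells 4 and 6, at 156 and 164, were above every ChR2 well, and the other 4 wild-type wells, at 44.6 to 113, were below every ChR2 well. The log2 fold change was 0.39 ± 0.23 (edgeR adjusted p = 0.229) and 0.14 ± 0.16 with 10 libraries (adjusted p = 0.516). Dtnb, or beta-dystrobrevin, rose by 0.92 ± 0.30 (adjusted p = 0.0326) from a low level, with 4.28 to 7.26 CPM in ChR2 wells and 0 to 5.00 in wild-type wells, where well 2 had 0 counts. With 10 libraries it rose by 0.99 ± 0.25 (adjusted p = 0.00775). Drp2, a shorter relative of dystrophin known from Schwann cells, fell by 0.39 ± 0.11 (adjusted p = 0.0185), with 48.1 to 67.6 CPM against 65.5 to 87.4. Summed Schwann markers were 6.66 to 8.98 CPM in ChR2 wells and 6.21 to 15.7 in wild-type wells, or 6.21 to 8.56 without wells 2 and 5. Of 5 such markers 2 were tested and neither was called. Their part in the level of Drp2 was not tested.

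**Figure D4:**
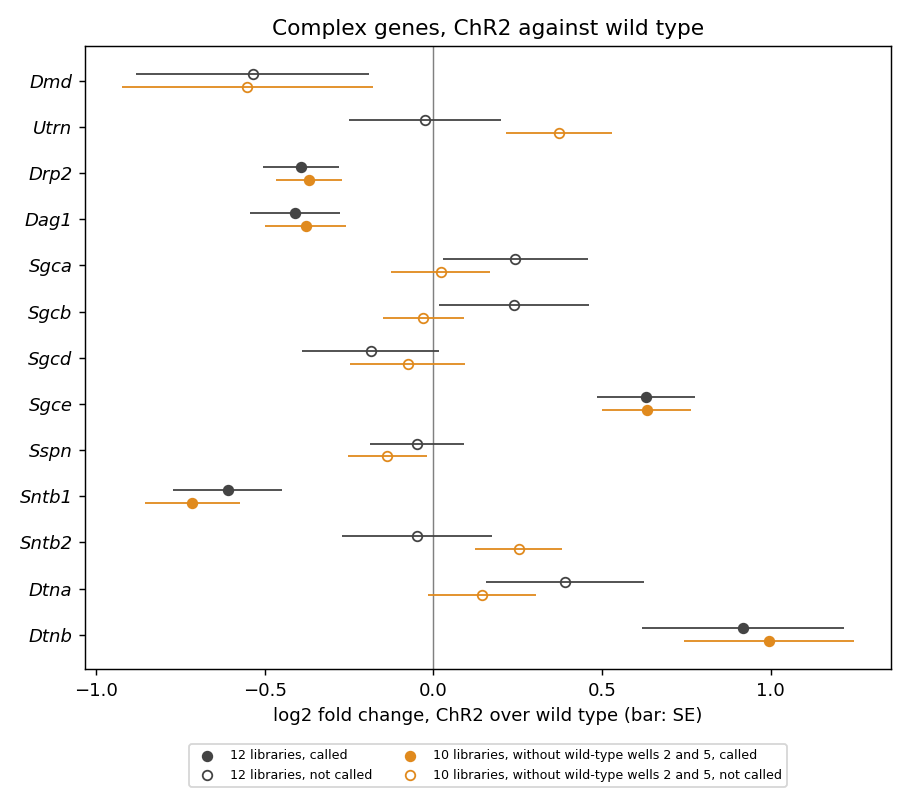
Log2 fold change of the 8 members and 5 other tested components, ChR2 over wild type, with SE bars, with 12 libraries (dark) and with the 10 that leave out wild-type wells 2 and 5 (orange); filled points passed the adjusted threshold of 0.05. Sntb1, Dag1 and Drp2 lie left of 0 and Sgce and Dtnb right of it in both sets.

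In all, 5 of 10 other components were tested, and 2 rose and 1 fell in both sets. The share called over all genes tested was 28.1% with 12 libraries and 35.2% with 10. Sgcz, Sntg1, Nos1, Sntg2 and Dytn were too low to test, the last 2 of them with 0 counts in all 12 wells. Nos1, the nitric oxide synthase anchored by syntrophin in fibres, had at most 1.006 CPM in ChR2 wells and 0.831 in wild-type wells 1, 3, 4 and 6. Its 3.93 CPM in wild-type well 2 is no more than the floor of 3 counts in that shallow library.

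Of 16 cytoskeletal and signalling partners 14 were tested, and 3 rose and 6 fell with 12 libraries, 4 and 4 with 10. Over all genes tested, 14% rose and 14.1% fell with 12 libraries, and 18.9% and 16.3% with 10. Krt19, a keratin of the costamere, rose by 2.14 ± 0.34 on the log2 scale (edgeR adjusted p = 0.000622), and Ank2, an ankyrin reported to bring dystrophin and dystroglycan to the membrane, rose by 0.96 ± 0.21 (adjusted p = 0.00455). Cav3, the muscle caveolin, fell by 1.35 ± 0.21 (adjusted p = 0.000432) from 110 ± 41.1 to 42.3 ± 7.05 CPM (SD, n = 6 each), with no overlap. Plec, or plectin, fell by 1.35 ± 0.39 with 12 libraries (adjusted p = 0.0186) and by 0.34 ± 0.11 with 10 (adjusted p = 0.0282), so leaving out wild-type wells 2 and 5 moved it by more than 1.5 times.

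The integrin linkage is the other main laminin receptor system of the fibre. Over all genes tested, 14% rose with 12 libraries and 18.9% with 10. All 10 genes of the integrin linkage were tested, 2 rose in both sets and none fell. They were Fermt2, or kindlin-2, which binds integrin tails (0.42 ± 0.13, edgeR adjusted p = 0.0238), and Parva, a parvin that links integrins to actin (0.41 ± 0.12, adjusted p = 0.0194). Itga7, the laminin-binding alpha chain of muscle, was at -0.29 (adjusted p = 0.213).

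Some markers of the state of the cultures moved between the lines as well. Over all genes tested, 14% rose and 14.1% fell with 12 libraries, and 18.9% and 16.3% with 10. All 8 proliferation genes rose in both sets, among them Ube2c (2.02 ± 0.22, edgeR adjusted p = 4.02e-05) and Ccnb2 (1.89 ± 0.24, adjusted p = 0.000128), and their summed level was 633 to 860 CPM in ChR2 wells and 89.1 to 482 in wild-type wells. Of 10 late muscle differentiation genes, none rose, and 2 fell with 12 libraries and 3 with 10. Mymk was called only with 10 libraries (-0.62, edgeR adjusted p = 0.00121). Ckm, Acta1, Myh3, Mylpf, Tnnt3, Tnnc2 and Actn2 were not called in either set. The median log2 fold change of the 10 genes was 0.26 with 12 libraries and -0.08 with 10, so the list did not fall as a whole. Myog, the myogenin gene, fell by 0.84 ± 0.17 (adjusted p = 0.00219) and Mybph, a myosin-binding protein, by 0.65 ± 0.17 (adjusted p = 0.0113). Of 10 fibroblast markers 7 were tested, 4 rose and none fell, and their summed level was 3877 to 4643 CPM in ChR2 wells and 1013 to 4304 in wild-type wells. The part of these differences in the levels of Dag1 and Sntb1 was not tested.

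The genes whose profile over the 12 wells lay nearest to each member were found among 10541 genes with a mean of at least 5 CPM, by the root mean square difference of centred log2 CPM. Sgca and Sgcb lay near each other, at 0.11 on the log2 scale. Sgcb was first for Sgca and Sgca second for Sgcb, behind Tmem47 at 0.09. Sgca was also first for Dtna, at 0.14. Over the 10 libraries, among 10542 genes, Sgcb was 18th for Sgca, and Sgca was 56th for Sgcb and 22nd for Dtna. Their first and second places were thus not kept without wild-type wells 2 and 5. The other nearest genes were Chchd3 and Gatm for Sgca, Sec63 for Sgcb, and Spp1 and Gatm for Dtna. Mapk14 (0.10), Fhip1a and Zfp106 lay nearest to Dag1, Tgfb3 (0.15), Filip1 and Fbxw7 to Sntb1, and Hspg2 (0.15), Metrnl and Notch3 to Utrn. Cdk5r1 (0.17), Myom3 and Chrng lay nearest to Dmd, and Mgarp (0.18), Eepd1 and Card19 to Sgcd.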

How the data were processed

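Poly(A)-selected libraries, 14 PCR cycles and paired reads of 50 bases, came from 12 wells, and low-input samples were ribodepleted, per the labels' protocols. The authors deposited estimated counts per gene and TPM for the same genes. Per the submitters' processing notes, the tools were STAR, Salmon, bedtools 2.25.0 and BWA 0.7.12-r1039, and the builds named were GRCm39, mm10 and hg19. The sources used here do not state what each was used for, nor whether counting used strand. The ChR2 transgene was not analysed here.

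Estimated counts were rounded to whole numbers, filtered by filterByExpr (minimum count 10), scaled by TMM and fitted with edgeR 4.0.16 (quasi-likelihood, robust) in R 4.3.3, Benjamini-Hochberg over all genes. The index of estimated count per TPM was fitted with limma 3.58.1 for genes with 10 counts in every library. DESeq2 1.42.0, voom, other scalings, TPM fits, a replicate block and leaving out each well were alternatives. The fits were tested on simulated data. Replicate libraries of a line differed beyond sampling noise (chi-square per degree of freedom of at least 5.09 over 30 pairs). Depth bounds counting error only, and reads carry no molecular identifiers; 3 counts was the floor.

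Members, gene lists and tests were chosen with earlier results of these data known. Named genes were all members and the 3 nearest profiles of each member. In each list they were up to 2 called rises and 2 falls of largest size, among genes reaching 1 CPM in either line. Lama2, Sspn, Sntb2, Itga7, Agrn, Nos1, Dolk and B3galnt2 were named after their values were seen. So were the muscle differentiation genes other than Myog and Mybph, and the fibroblast markers. Promoters came from RefSeq and transcript lengths from GENCODE M21. Some related genes are not reported here and were left out of the lists.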

Additional observations from a re-analysis of the deposited data

Results flagged for a closer look

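Of 25 named genes, tested for a well far from the rest of its line, 3 of 50 groups of 6 wells had one; chance gives about 1 in 20. Pomt1 was highest in ChR2 well 1, at 25.6 CPM, against 19.0 to 21.4 in the other ChR2 wells. Plec was highest in ChR2 well 2, at 1001 CPM, against 743 to 811. Ccnb2 was highest in wild-type well 6, at 23.0 CPM, against 6.55 to 10.3.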

How the results depend on the processing

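Sntb1 stayed lower in ChR2 wells in every setting run, and Dag1 too, though not always past the threshold. On log2 TPM with 12 libraries (TPM + 1, TPM + 0.1 and TPM + 1 without a filter), 620, 271 and 425 genes were called, against 3701 on counts, with 592 and 28, 254 and 17, and 402 and 23 of them higher and lower. These scales moved the median of all genes by 0.37, 0.45 and 0.096. Under them Dag1 was at -0.071 each time (limma adjusted p = 0.930, 0.924 and 0.930), Sntb1 at -0.59, -0.61 and -0.59 (0.268, 0.268 and 0.333), Utrn reversed to 0.39, 0.41 and 0.39, and Sgcd reversed to 0.29, 0.31 and 0.29. Relative to the median of all genes in the filtered fits, a measure added after the values were seen, Utrn was at 0.038 and -0.023 and Sgcd at -0.055 and -0.12, so these sign changes went with the shift of all genes; without a filter Utrn was at 0.31 and Sgcd at 0.22. With 10 libraries, TPM without a filter called 2430 genes, against 4749, and the 3 TPM scales reversed Sgca to -0.059 and Dtna to -0.053, which relative to the median was 0.025 and 0.031 (TPM + 1), 0.034 and 0.040 (TPM + 0.1) and -0.046 and -0.041 (no filter). With 12 libraries Dag1 was no longer past the threshold with upper-quartile scaling (-0.35, edgeR adjusted p = 0.0706) or without a filter (-0.39, 0.105). Utrn reversed with upper-quartile scaling (0.033), voom (0.35) and no filter (0.012), Sgcd with voom (0.050), and, with 10 libraries, Sgcb with upper-quartile scaling (0.0068) and Sgca without a filter (-0.0029). The cause was not tested.

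Leaving out 1 well at a time gave 2822 to 4115 called genes with 12 libraries and 3861 to 4975 with 10. The log2 fold change then ran from -0.48 to -0.35 (12) and -0.51 to -0.33 (10) for Dag1, -0.16 to 0.16 and 0.21 to 0.50 for Utrn, -0.17 to 0.12 (10) for Sgca, -0.16 to 0.077 (10) for Sgcb, -0.22 to 0.15 (10) for Sgcd and -0.048 to 0.29 (10) for Dtna. The length index of Utrn ran from -0.0095 to 0.067 (12) and -0.049 to 0.079 (10), and that of Sgca from -0.060 to 0.074 (10). Genes called on this index ran from 0 to 1 (12) and 0 to 6 (10). Rises went from 1 to 2 in the glycosylation list and from 1 to 2 among matrix ligands when wells 2 and 5 were left out.

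Wells with the same number share only a name: their deviations correlated at -0.14 to 0.10, and 1 of 6 pairs was best matched by its own number. With the replicate number as a block, 3008 genes were called with 10 libraries and 0 on the length index, Dag1 was at -0.40 (adjusted p = 0.106) with 12 libraries and -0.39 (0.106) with 10, and Utrn reversed to 0.054 with 12. Across all settings, 469 fold changes or index values kept their direction and their side of the threshold, 35 reversed, 21 lost the threshold and 2 gained it. Of the counts of called genes, 72 stayed within 1.5 times and 14 did not. Dmd rests on 2 to 51 counts per well.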
